A study of Bos taurus with 68 samples.

Results

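Pyruvate carboxylase (PC) and pyruvate dehydrogenase kinase 4 (PDK4) were followed in the liver of dairy cows from late pregnancy to early lactation. Each gene was represented by 1 cDNA clone, chosen by the gene symbol of the array annotation updated through its Entrez Gene identifier (338471 for PC, 507367 for PDK4). These are 2 of the 5693 clones of the larger deposited table. Both clones were spotted 2 times and gave a value on all 60 arrays of that table, and both were among the 5280 clones tested.

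Pyruvate stands at a branch point in liver. PC, a biotin-dependent mitochondrial enzyme, carboxylates pyruvate to oxaloacetate, which feeds gluconeogenesis and refills the citrate cycle. The pyruvate dehydrogenase complex instead oxidises pyruvate to acetyl-CoA, and PDK4 phosphorylates and inactivates that complex, which spares pyruvate and lactate for glucose synthesis. In ruminants most glucose is made in the liver, and the demand for it increases sharply with the onset of milk secretion; PDK4 is a known target of PPARA, FOXO factors and glucocorticoids, and is repressed by insulin.

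Liver total RNA of 5 Bos taurus cows (numbered 6934, 6983, 7079, 7186 and 7188) was compared with a reference standard RNA on 2-colour cDNA arrays, on days -65, -30, -14, 1, 14, 28 and 49 relative to parturition. All groups were the same animals at different days, with no treatment named; breed, parity and diet and the make-up of the reference were not given in the sources used here. Every cow and day (a cow-day) had 2 arrays with the dyes exchanged, so that 68 arrays covered 34 cow-days. The larger table held 30 cow-days. All 5 cows were present on days -65, -30, 1 and 28, while day 49 had 4 cows and days -14 and 14 had 3 each. The other 4 cow-days were on 8 arrays with a different layout and are given separately. Between 14607 and 16288 of the 16416 rows had a value on an array of the larger table. Precision is limited by the number of cows, and then by the number of their arrays. Of 19 hepatocyte markers 5 were tested, and all 5 had a level above 0, led by TF (transferrin) at 3.80 and SLC10A1 (the bile acid uptake transporter) at 3.80; the lowest was APOA1 at 0.08. None of the 7 erythroid markers was matched to a clone.

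All values are log2 ratios of liver over reference, each array centred on its median, and a cow-day is the mean of its exchanged arrays. The direction is the likely one: it takes the deposited ratio as Cy5 over Cy3, and every sign turns if the ratio runs the other way. In whole tissue, fewer cells of a type and less RNA per cell cannot be told apart.

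PDK4 was above the reference in nearly every sample. Its level was 0.866 ± 0.315 (SD over cow means, n = 5), a ratio of 1.82, and 28 of 30 cow-days were above 0. The cow-day values ran from -0.259 over a median of 0.826 to 2.678, a 7.66-fold range. The ratio of PDK4 ranked at the 94.5th percentile of the tested clones. PC lay at the level of the reference: 0.018 ± 0.195 (SD over cow means, n = 5), with 15 of 30 cow-days above 0 and a percentile of 51.2. Its cow-day values ran from -0.838 over a median of 0.030 to 0.759, a 3.02-fold range. A percentile ranks the ratio to the reference, not the abundance of the transcript in liver.

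The level of PC against the reference depended on the dye. With liver in Cy5 it was 0.277 ± 0.333 and with liver in Cy3 it was -0.241 ± 0.119 (SD over cow means, n = 5); the Cy5 array gave the higher value in 27 of 30 cow-days, by 0.539 on average. The sign of its level therefore differed with the orientation, and only the mean of the pair was read. PDK4 was above 0 with either dye, at 0.722 ± 0.348 with liver in Cy5 and 1.01 ± 0.333 with liver in Cy3 (SD over cow means, n = 5).

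By day, the means of PC in the larger table were lowest at both ends of the series and higher between them. Not every cow had this course: cow 6983 was highest on day -65, and cow 7188 was lowest on day 28. On day -65 the values were -0.21 in cow 6934, 0.17 in cow 6983, -0.47 in cow 7079, -0.28 in cow 7186 and -0.40 in cow 7188 (mean -0.238 ± 0.250 SD, n = 5). On day -30 the same cows gave 0.09, -0.13, 0.76, 0.72 and 0.08 (mean 0.304 ± 0.408 SD, n = 5). All cows except 6983 were higher on day -30 than on day -65, but the groups overlapped. On day 49 all 4 cows measured were below 0, at -0.17 in cow 6934, -0.84 in cow 7079, -0.39 in cow 7186 and -0.21 in cow 7188 (mean -0.400 ± 0.307 SD, n = 4). Between these days the means were 0.063 ± 0.325 (SD, n = 3) on day -14, 0.22 ± 0.353 (SD, n = 5) on day 1, 0.170 ± 0.296 (SD, n = 3) on day 14 and 0.043 ± 0.534 (SD, n = 5) on day 28. These means leave out the other layout, which was centred separately. There, PC on day -14 was -0.44 in cow 6934 and 0.06 in cow 7079. On day 14 it was -0.28 in cow 6934 and -0.94 in cow 7188, the last below every value of the larger table.

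In the larger table PDK4 followed no common course over the days, and cows peaked at different times. The values and day means here leave out the cow-days of the other layout. There, cow 6934 gave 2.28 on day -14 and 2.20 on day 14, and cow 7188 gave 2.33 on day 14. These exceed the highest values given here for the same cows, but that layout was centred separately. On day -30 cow 7186 reached 2.68, while cow 6934 was at 0.54, cow 6983 at 1.20, cow 7079 at -0.04 and cow 7188 at 0.78 (mean 1.03 ± 1.02 SD, n = 5). On day 1 cows 6934 and 6983 had their highest values, 1.70 and 1.98, whereas cow 7188 had its lowest, 0.04; cow 7079 was at 0.25 and cow 7186 at 0.58 (mean 0.911 ± 0.874 SD, n = 5). The highest values of cows 7079 and 7188, 1.14 and 0.99, came on day -65, where cow 6934 was at 0.88, cow 6983 at 1.10 and cow 7186 at 0.19 (mean 0.859 ± 0.389 SD, n = 5). The day means ranged from 0.370 ± 0.576 (SD, n = 3) on day -14 to 1.12 ± 0.636 (SD, n = 5) on day 28. Day 14 stood at 0.83 ± 0.202 (SD, n = 3) and day 49 at 0.640 ± 0.476 (SD, n = 4).

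**Figure D1:**
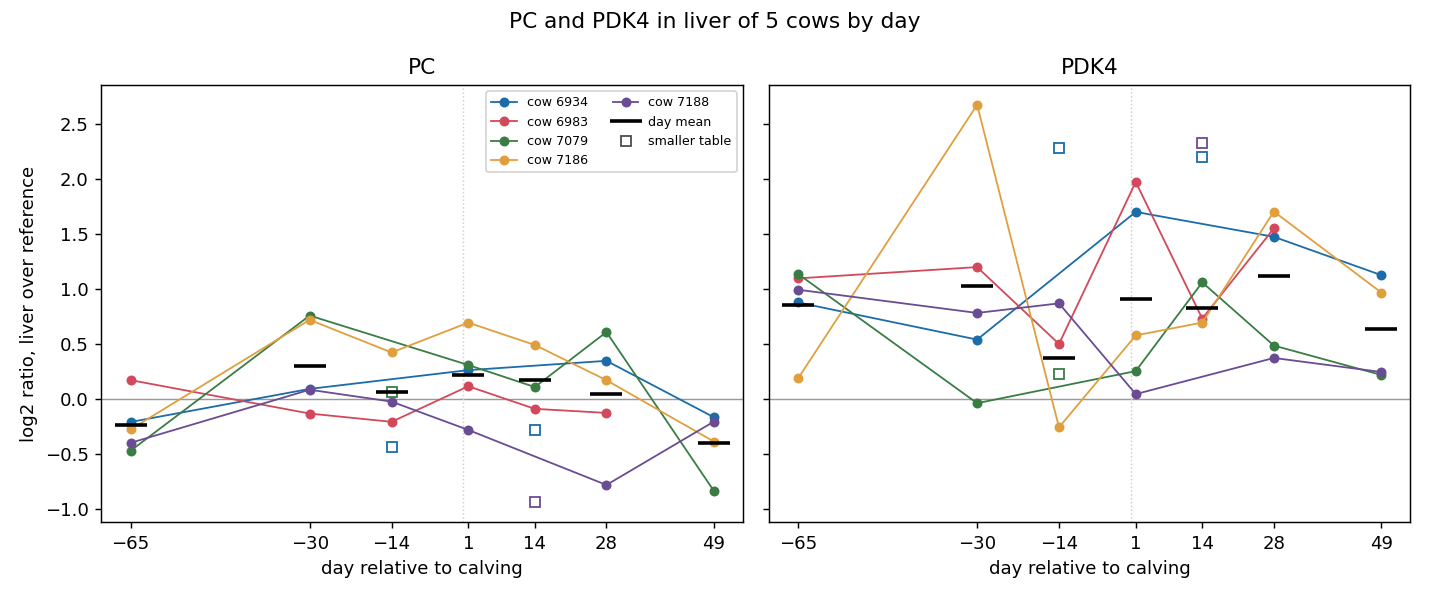
Log2 ratio of liver over reference (y) by day relative to calving (x) for PC (left) and PDK4 (right); filled points joined by lines are the cow-days of the larger table, black bars the day means, and open squares the cow-days of the smaller table. The 4 PC values of day 49 lie below 0. Among the filled points, PDK4 peaks on day 1 in cows 6934 and 6983 and on day -30 in cow 7186. In cows 7079 and 7188 the highest filled point is on day -65. The open squares of cow 6934 (2.28 and 2.20) and of cow 7188 (2.33) lie above all filled points of these cows.

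Neither gene passed the test for a difference among the days. In limma's moderated F test over the 7 days with cow as a block, PC had p = 0.0479 and an adjusted p of 0.958, and PDK4 had p = 0.721 and an adjusted p of 0.996 (Benjamini-Hochberg over all 5280 clones). The background for this test was 1 called clone (LOC327709), or 0.0189% of those tested, with 267 clones at an unadjusted p under 0.05. For differences among cows, limma called 800 clones or 15.2%, and neither member was among them (adjusted p = 0.222 for PC, 0.376 for PDK4). The number called for cow differences was 410 without cow 6934, 1 without cow 6983 and 0 without cow 7186.

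Of the 5 contrasts fitted singly, the one between days -65 and -30 was the largest for PC. PC was higher on day -30 than on day -65 by 0.54 ± 0.22 (SE; 95% interval 0.097 to 0.987), in 4 of 5 cows, with limma p = 0.0191 and an adjusted p of 0.486. PC was lower on day 49 than on day 28 by a difference of -0.48 ± 0.23 (SE; 95% interval -0.954 to -0.001), in 3 of 4 cows, with limma p = 0.0495 and an adjusted p of 0.703. Cow 7188 went the other way, with a within-cow difference of 0.577. For day 1 against day -30, across calving, the difference in PC was -0.08 ± 0.22 (SE), and for day 28 against day 1 it was -0.18 ± 0.22 (SE). The first of these was 0.0069 without cow 7079. These 2 intervals ran from 0.693 to 1.28-fold and from 0.650 to 1.20-fold. The mean of days 14, 28 and 49 differed from that of days -65, -30 and -14 by -0.16 ± 0.14 (SE) in PC.

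For PDK4 the standard error was larger than the difference in all 5 contrasts. Day -30 differed from day -65 by 0.17 ± 0.39 (SE), day 1 from day -30 by -0.12 ± 0.39 (SE), and day 28 from day 1 by 0.21 ± 0.39 (SE). The first 2 of these took the opposite sign without cow 7186, at -0.41 and 0.37, and the third then stood at -0.02. Without cow 7188 the difference of day 1 from day -30 was 0.03. PDK4 was lower on day 49 than on day 28 in 4 of 4 cows, with differences of -0.35 in cow 6934, -0.27 in cow 7079, -0.74 in cow 7186 and -0.13 in cow 7188; the fitted difference was -0.40 ± 0.42 (SE), with a limma adjusted p of 0.994. Lactation differed from the prepartum days by 0.15 ± 0.26 (SE), with 4 of 5 cows higher. Across calving, the 95% interval for PDK4 ran from 0.522 to 1.62-fold.

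**Figure D2:**
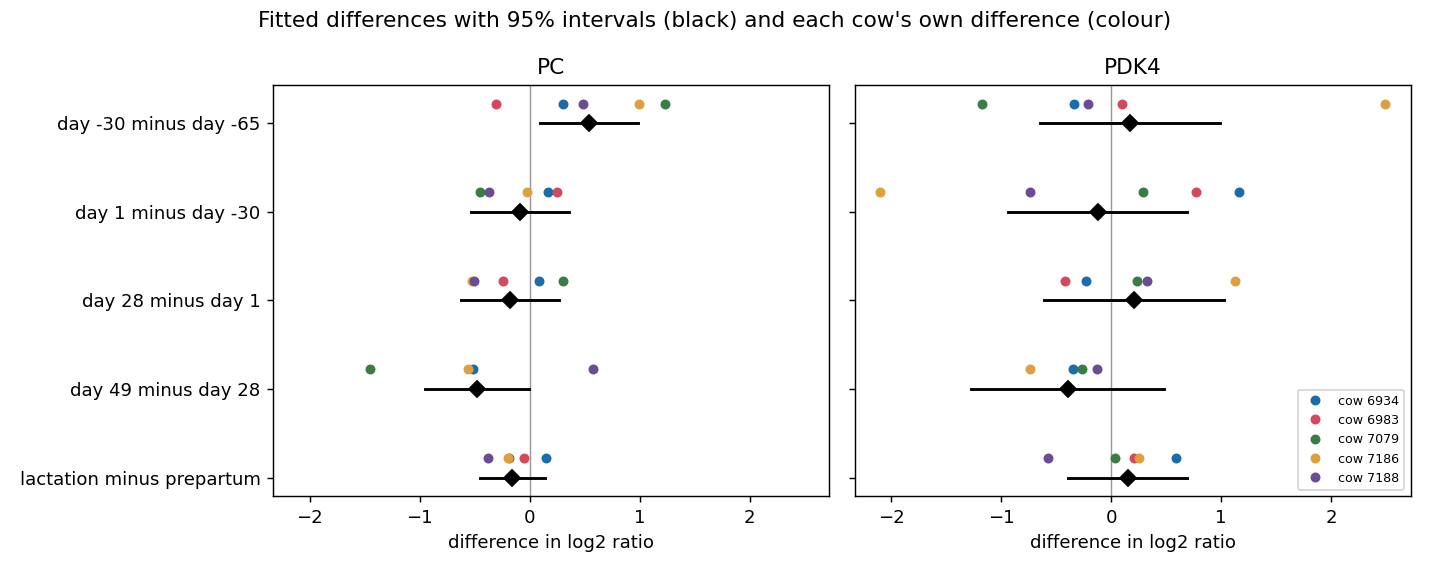
Difference in log2 ratio (x) for 5 contrasts between days (rows), with the limma estimate (black diamond), its 95% interval (black line) and each cow's own difference (coloured points), for PC (left) and PDK4 (right). The PC interval for day -30 minus day -65 runs from 0.097 to 0.987; the cows' PDK4 differences for day 1 minus day -30 run from -2.10 to 1.16.

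The background of these contrasts was low throughout. limma called 0% of clones for day -30 against -65 (525 at an unadjusted p under 0.05), 0.0189% for day 1 against -30 (1 clone; 401 unadjusted), 0% for day 28 against 1 (388 unadjusted), 0% for day 49 against 28 (373 unadjusted) and 0% for lactation against the prepartum days (202 unadjusted). Over all 21 pairs of days, with adjustment over clones and pairs together, limma called 0% of clones, although 2039 clones had at least 1 pair at an unadjusted p under 0.05. PC had 5 of 21 pairs at an unadjusted p under 0.05 and none after adjustment. Its smallest p, 0.00389, was for day 49 minus day -30, a difference of -0.74 with a limma adjusted p of 0.99994. PDK4 had no pair at an unadjusted p under 0.05. No neighbours in the order of daily levels of either gene differed after adjustment.

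The spread of PDK4 between cow-days was seen again on the exchanged arrays. Over the 30 cow-days, the array with liver in Cy3 and the array with liver in Cy5 gave r = 0.603 for PDK4, which was the 93.8th percentile among clones, whose median was 0.209. The same r was 0.284 for PC, the 60th percentile. The 2 spots of a clone on an array correlated at 0.937 for PDK4 and 0.926 for PC over 60 arrays. A limma fit on single arrays compared the cow-by-day term with the spread between exchanged arrays. It gave PDK4 an adjusted p of 0.0066 and PC an adjusted p of 0.581, with 441 clones or 8.35% called. This test covers array noise and not the spread of repeated samples of an animal.

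That result for PDK4 leaned on 1 cow-day. Cow 7186 on day -30 gave 2.42 with liver in Cy3 and 2.93 with liver in Cy5, the highest pair. Without it, the limma adjusted p of the cow-by-day term was 0.101, and it was 0.0911 without all days of cow 7186 and 0.0627 without those of cow 7188. The same cow-day had the widest spread over clones, with a median absolute deviation of 0.620 against a median of 0.371 over the 30, and the highest mean of the 5 tested hepatocyte markers, 3.05 against a median of 2.24. Their part in the PDK4 value was not tested. With every array scaled to 1 median absolute deviation, PDK4 in this cow-day was still the highest of 30, and the adjusted p of the term was 0.0409.

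**Figure D3:**
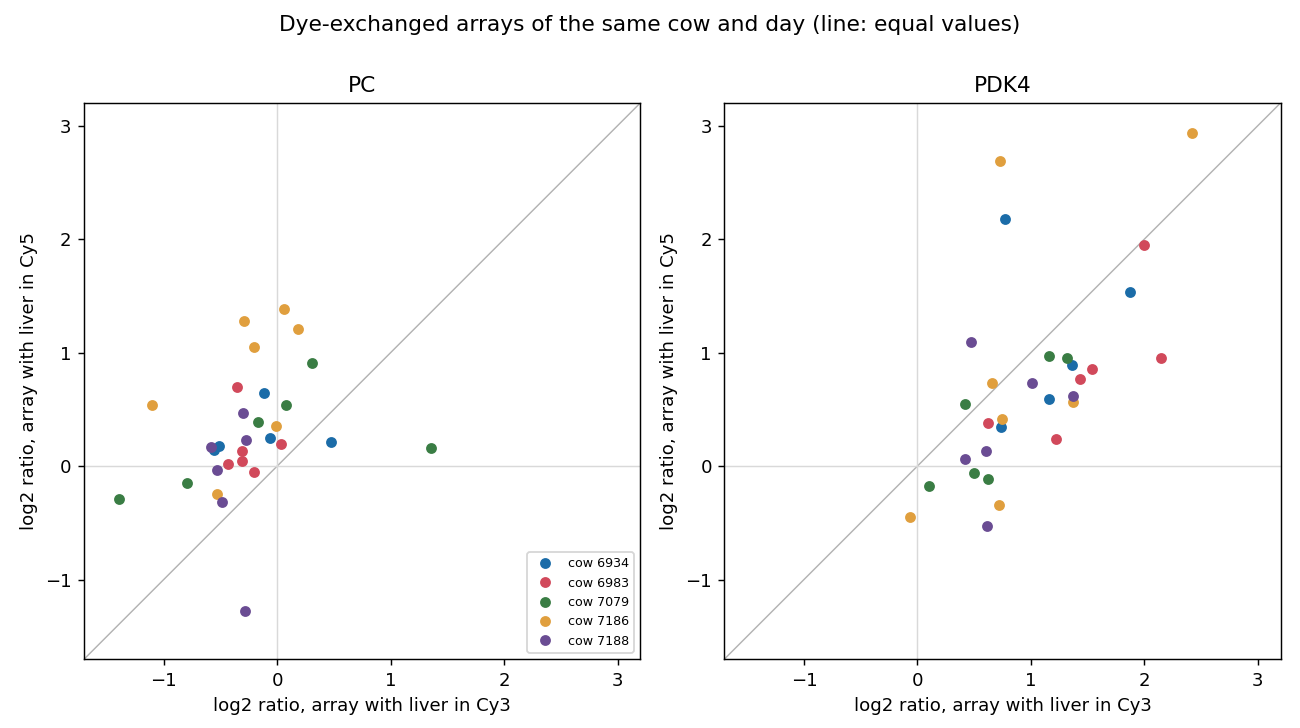
Log2 ratio on the array with liver in Cy3 (x) against the exchanged array with liver in Cy5 (y) for the 30 cow-days of PC (left) and PDK4 (right), coloured by cow; the line marks equal values. PC points lie above the line in 27 of 30 cow-days, and PDK4 points in 6 of 30; the r of the PDK4 arrays is 0.603.

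The 4 cow-days on the other array layout, centred separately, gave high PDK4 values in 3 of 4 cases. PDK4 was at 2.28 in cow 6934 on day -14, 2.20 in cow 6934 on day 14 and 2.33 in cow 7188 on day 14, each at or above the 98th percentile of its arrays. It was at 0.22 in cow 7079 on day -14. These 3 high values exceed all but 1 of the 30 values in the larger table, but the layouts were normalised separately. PC was at -0.44, -0.28 and -0.94 in the 3 cow-days with high PDK4, and at 0.06 in cow 7079 on day -14.

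The r between PC and PDK4 within cows was low. PC repeated only weakly between exchanged arrays (r = 0.284), so a low r cannot show that the 2 genes are unrelated. After subtraction of each cow's mean, their values over 30 cow-days had a Pearson r of 0.136 and a Spearman rho of 0.066. This is a description over 5 cows, with both genes read on the same arrays. Without cow 7186 on day -30, r was -0.015. It was 0.322 without all days of cow 7079, 0.043 without those of cow 7186, and -0.114 on arrays with liver in Cy3 alone; the 15 alternatives run lay between these values of -0.114 and 0.322. From one sampled day to the next within a cow, both genes moved in the same direction in 11 of 25 steps. Within single cows, r over 5 to 7 days was 0.574 in cow 6934, 0.511 in cow 6983, -0.339 in cow 7079, 0.269 in cow 7186 and 0.308 in cow 7188. Among 4966 clones measured in every cow-day, PDK4 ranked 2110th in likeness to PC.

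The 2 genes were also compared in how far they moved. Between the prepartum days and lactation, the change in PC minus the change in PDK4, each cow's own days averaged, was -0.237 ± 0.262 (SD over cows, n = 5) and was below 0 in 4 of 5 cows (exact sign-flip permutation test, two-sided p = 0.125). It stayed below 0 in the 15 alternatives run. It was -0.460 without the cow-days whose arrays did not oppose and -0.373 with both tables joined (exact p = 0.063 each). With liver in Cy3 alone it was -0.058 (exact p = 0.81). Between day -30 and day 1 it was 0.037 ± 1.25 (SD over cows, n = 5; exact p = 1), and -0.472 without cow 7186 (n = 4; exact p = 0.25) or -0.047 without cow 7188 (n = 4; exact p = 1). With 5 cows this test cannot go below 0.063.

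**Figure D4:**
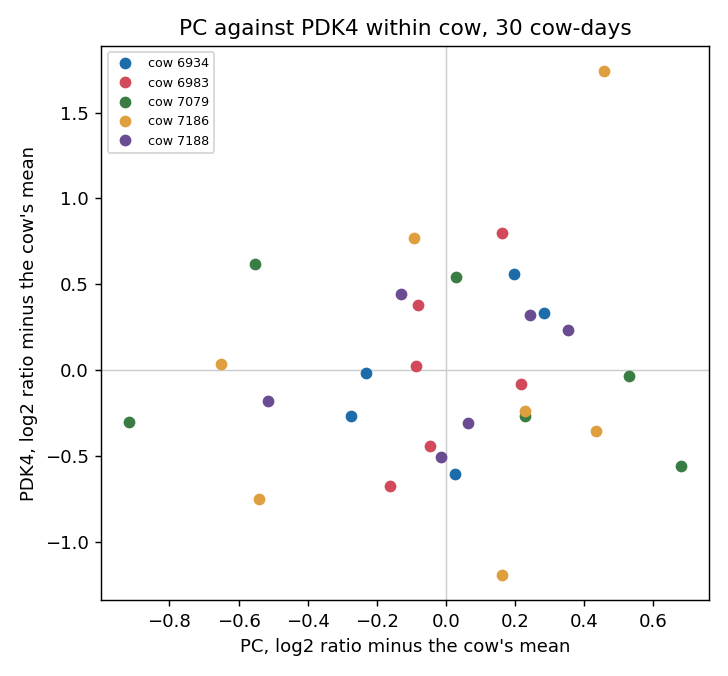
PC (x) against PDK4 (y), both as log2 ratio minus the cow's own mean, for 30 cow-days coloured by cow. The point far above the rest is cow 7186 on day -30; r is 0.136 with it and -0.015 without it.

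The enzymes and regulators around the branch point gave the same result in the tests by day. Of 124 genes in 8 pathway lists, 56 were matched to a clone and 54 were tested. limma called 0 of 54 for the day effect and 0 of 54 for each of the 5 contrasts. At an unadjusted p under 0.05 there were 6 of 54 for the day effect, beside 5.06% of all clones. For day -30 against -65 there were 0 of 54 (9.94% of all clones), and for day 1 against -30 there were 5 (7.59%). The counts were 6 for day 28 against 1 (7.35%), 7 for day 49 against 28 (7.06%) and 3 for lactation against the prepartum days (3.83%). For differences among cows 9 of 54 were called, near the share of all clones (15.2%), so this count is not particular to these lists. Over all clones the calls for cow fell from 800 to 0 without centring or without cow 7186, and to 4 with liver in Cy5 alone. The 9 genes were BSG (a chaperone of the lactate transporters), the transaminases GOT1 and GOT2, the glycolytic enzymes ENO1, TPI1 and GAPDH, SDHA of the citrate cycle, and the regulators CEBPD and ESRRA. This list depends on the clone that stands for a gene: the other GOT1 clone was not called (adjusted p = 0.147 in limma), while other clones of PGAM1, SUCLG2 and TXNIP were (adjusted p = 0.0463, 0.0320 and 0.0449).

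The complex that PDK4 inhibits was represented by 4 genes. PDHA1 and PDHB, the subunits of its decarboxylase component, had levels of -0.02 ± 0.198 and 0.30 ± 0.257 (SD over cows, n = 5). DLD, the dihydrolipoamide dehydrogenase of the complex, was at 0.02 ± 0.128, and the related kinase PDK3 at -0.01 ± 0.226. None passed the day test (unadjusted p from 0.563 for PDHA1 to 0.821 for DLD). In cow-centred values DLD had r = 0.80 with PDK4, higher than that of 99.6% of clones, and 0.708 without cow 7186 on day -30. The 0.80 was the highest r with PDK4 among the tested pathway genes, and DLD was singled out after its values were seen. Its values ran from -0.519 over a median of -0.012 to 0.926, the highest in cow 7186 on day -30. When PDK4 on one array was set against DLD on the exchanged array, r was 0.486. Its other clone differed, with a level of 0.929 and r = 0.380 with PDK4. The other PDHA1 clone also differed in level, at -1.36. PDHB, PDK3 and PDHA1 had r of 0.440, 0.339 and 0.222 with PDK4, but the other PDHA1 clone had -0.049.

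The biotin list, which holds the other enzymes with the cofactor of PC, had 2 tested genes. MCCC1, a subunit of methylcrotonyl-CoA carboxylase, was at 0.69 ± 0.067 (SD over cows, n = 5) and had r = 0.760 with PDK4 but -0.148 with PC. Across exchanged arrays, r of MCCC1 with PDK4 was 0.465, and MCCC1 itself repeated weakly between them (r = 0.218). SLC5A6, which carries biotin into cells, was at -0.04 ± 0.161 (SD over cows, n = 5), with r = 0.152 with PC; its other clone gave -0.362. Among the genes of pyruvate transport and lactate metabolism, BSG had a level of 0.87 ± 0.503 (SD over cows, n = 5) with a day-effect p of 0.036 and an adjusted p of 0.946 (limma). LDHA, lactate dehydrogenase A, was the lowest of its list and was named after its values were seen; it ran from -3.43 over a median of -2.19 to -0.31.

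On the path from oxaloacetate to glucose, more genes had a positive r with PC than with PDK4, a difference that was not tested. Of its 10 tested genes, 7 had an r above 0 with PC, and the median was 0.454, against 0.058 over all complete clones. With PDK4, 3 of 10 were above 0 and the median was -0.156, against 0.038 over all complete clones. MDH2, mitochondrial malate dehydrogenase, which uses the oxaloacetate that PC makes, had r = 0.648 with PC, and its other clone 0.708. PGAM1 (0.596), TPI1 (0.589) and ENO1 (0.483) followed. GOT1 (-0.373), PGK1 (-0.305) and GOT2 (-0.263) had an r below 0 with PC. The other clones of GOT1 and GOT2 gave 0.382 and 0.399, so the count depends on the clone that stands for a gene. Across exchanged arrays the values of MDH2, PGAM1, TPI1 and ENO1 were 0.236, 0.203, 0.083 and 0.106. The r of PC with itself was 0.284, but without subtraction of cow means, so it is not a like measure. PGK1 had the lowest r with PDK4, -0.685, or -0.472 without cow 7186 on day -30 and -0.215 across exchanged arrays. MDH2, PGAM1 and PGK1 were named after their values were seen.

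The list of PPARA targets, of which PDK4 is itself one, had 12 tested genes, 11 of them above the reference, with a median level of 1.45 against 0.012 over all clones. CPT1A, which admits fatty acids to mitochondria, had the smallest day-effect p of the list (0.013; adjusted p = 0.851 in limma) and a level of 1.54 ± 0.326 (SD over cows, n = 5). ETFDH, which passes electrons from fatty acid oxidation to ubiquinone, was the highest of the list at 2.33 ± 0.404, and PLIN2, a lipid droplet coat protein, the lowest at -0.38 ± 0.129 (SD over cows, n = 5). With PDK4, 9 of 12 had an r above 0 (median 0.312). ETFA had 0.765, ETFDH 0.665 and CPT1A 0.615, or 0.713, 0.714 and 0.528 without cow 7186 on day -30. Across exchanged arrays the 3 values were 0.460, 0.339 and 0.440. The other CPT1A clone gave 0.50, and a day-effect p of 0.555. ETFB had -0.085 with PDK4. ACADVL, very long chain acyl-CoA dehydrogenase, had the highest r of the list with PC, 0.711, but 0.272 across exchanged arrays.

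Glucocorticoid, FOXO and insulin-responsive genes split in their likeness to PDK4. NR3C1, the glucocorticoid receptor, had r = 0.701 (0.557 without cow 7186 on day -30), and TXNIP, an inhibitor of glucose uptake, had 0.679, with 0.640 and 0.677 at its other 2 clones. Over the 9 tested genes, however, the median was 0.063, with 7 above 0. FOXO3 had 0.071 and PER1 -0.294. CEBPD and ESRRA, called for differences among cows, had 0.007 and 0.12. Of the citrate cycle, 6 of 9 had an r above 0 with PDK4 (median 0.083): SDHD had 0.752 and SDHA 0.161. Of the enzymes of propionate entry, MCEE had 0.679, SUCLG2 0.589, SUCLA2 -0.060 and ACSS1 -0.396. Across exchanged arrays, r with PDK4 was 0.394 for NR3C1, 0.384 for TXNIP, 0.483 for SDHD, 0.233 for MCEE and 0.413 for SUCLG2. DLD, NR3C1, TXNIP, FOXO3, SDHD, ETFA and PER1 were named after their values were seen, and 452 of 4966 clones had an r above 0.5 with PDK4.

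**Figure D5:**
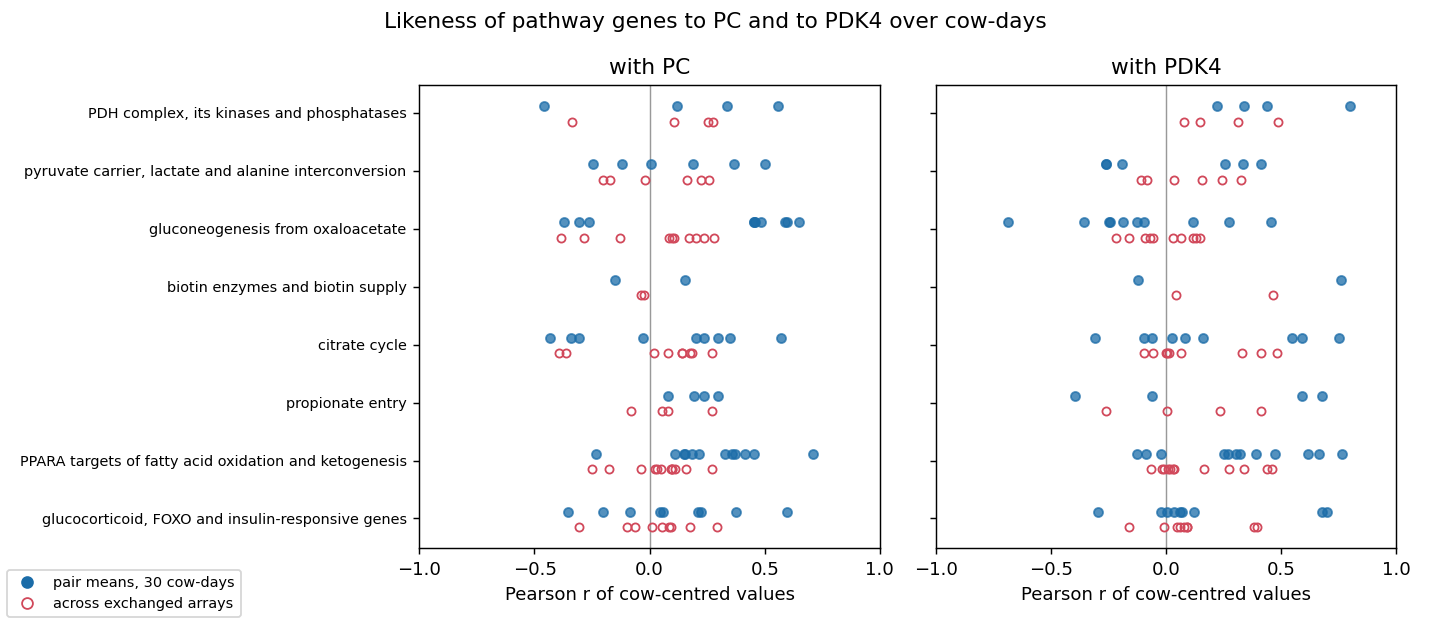
Pearson r (x) of cow-centred values of each tested pathway gene with PC (left) and PDK4 (right), by list (rows); filled points use the mean of the exchanged arrays over 30 cow-days, open points set one gene on an array against the other on the exchanged array. DLD with PDK4 stands at 0.80 filled and 0.486 open.

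Over all clones, those most like PDK4 were RNH1 (r = 0.869), DUSP16 (0.863), COLGALT2 (0.855), CLDN1 (0.854) and CTSS (0.847), and those least like it were ESYT1 (-0.862) and DDX39A (-0.826). Their r across exchanged arrays was between 0.425 and 0.608 for the first 5 and -0.544 and -0.238 for the last 2. Those most like PC were PDZD11 (0.805), RHOB (0.779), FN1 at 2 clones (0.772 and 0.759) and SSR2 (0.75), and those least like it were ASB9 (-0.798) and NFATC1 (-0.797). Across exchanged arrays the 5 most like PC had r between 0.204 and 0.360. The r values are over 30 cow-days of 5 cows, with the compared clones read on the same arrays. They were chosen as extremes of 4966 clones.

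The means of marker lists were set against the members over the 30 cow-days. The mean of 5 of 9 endothelial markers had r = 0.485 with PC and 0.432 with PDK4, and ranged from 0.264 on day -14 to 0.564 on day 28. Its single members differed in sign. With PC they ran from -0.305 for PECAM1 to 0.577 for ENG, and with PDK4 from -0.247 for ENG to 0.619 for LYVE1. The mean of 11 of 13 Kupffer cell and macrophage markers had r = 0.319 with PC and 0.197 with PDK4, and ranged from 1.77 on day -30 to 1.23 on day 49. The mean of the hepatocyte markers had r = 0.214 with PC and 0.436 with PDK4. With PC and PDK4 in turn, 7 of 12 stellate and matrix markers had 0.284 and -0.366, and 3 of 7 bile duct markers -0.421 and -0.110. For 3 of 13 lymphocyte and neutrophil markers the values were 0.004 and -0.225, and for the single tested one of 14 muscle and adipose markers 0.401 and 0.184. Their part in the values of PC and PDK4 was not tested.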

How the data were processed

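The deposited tables hold a log2 ratio per spot and array; scanning with GenePix 4.0 is per the labels, and the numerator, the normalization and the log base were not given in the sources used here. The base was checked in the values: of 1947 between 4.9 and 5.322 in size, 56.1% matched, at 3 decimals, log2 quotients of 2 integers no larger than 40, although such quotients cover 2.60% of that grid. Arrays with liver in Cy3 had their sign turned. Before turning, the exchanged arrays correlated below 0 in 25 of 30 cow-days over all rows, and in 30 of 30 over tested clones. Over tested clones this r ran from -0.714 in cow 6983 on day 28 to -0.0018 in cow 7188 on day 49. Some pairs thus opposed only weakly. Array medians before centring ran from -0.948 to 0.643. Spots of a clone and the exchanged arrays were averaged. Clones needed 3 cows on every day. Of 5693 clones, 5598 named 1 gene and 95 several; 5030 rows had no clone name.

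limma 3.58.1 in R 4.3.3 (statmod 1.5.0) fitted day and cow, since the same animals were sampled throughout (19 residual and 4.27 prior degrees of freedom), with Benjamini-Hochberg adjustment and a threshold of 0.05. Scripts were tested on simulated data. Figures used matplotlib 3.10.9. Alternatives were the centring, scaling, dye, cow block, array weights, tables, filters, spots and single cows; the cow-by-day fit, the fit without cow 7186 on day -30 and the likeness across arrays were added after seeing the data. Named genes were PC, PDK4, of each pathway list those past a threshold or else the 3 with the smallest day-effect p and the highest and lowest level, and the 5 most and 2 least like each member. Members and lists were chosen with earlier results of these data known. No sequence of these clones was used here.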

Additional observations from a re-analysis of the deposited data

Results flagged for a closer look

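PDK4 on day -65 was 0.186 in cow 7186, apart from the other 4 cows of that day, which lay between 0.878 and 1.14; the gap was 0.727 of the day's whole range. This was 1 of 12 groups examined for PC and PDK4, and chance flags about 1 in 20 such groups. The same cow gave the highest PDK4 value of all on day -30.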

How the results depend on the processing

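Neither PC nor PDK4 passed the threshold for day, cow or any contrast under any of the 21 alternatives (19 for the cow effect); the adjusted p for day ran from 0.121 to 0.99999 for PC and from 0.405 to 0.99999 for PDK4. PC kept its sign for day -30 minus -65 (0.28 to 0.81) and for day 49 minus 28 (-0.90 to -0.12), and PDK4 for lactation minus prepartum (0.04 to 0.43). Dropping the cow block (no replicate block) took the day-effect count from 1 to 0 and changed no call of PC or PDK4. The cause of the shifts below was not tested.

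PC across calving turned to 0.0149 without centring, 0.0507 with liver in Cy5 alone and 0.0343 with array weights, and spanned -0.168 to 0.00694 without 1 cow. PC on day 28 minus 1 turned to 0.13 with liver in Cy3 alone, and in lactation minus prepartum to 0.0293 with array weights. PDK4 on day -30 minus -65 turned to -0.15 with Cy3 alone, -0.00945 with weights and -0.28 without cow 7186 on day -30, and spanned -0.41 to 0.51 without 1 cow. PDK4 on day 1 minus -30 turned to 0.12, 0.23 and 0.33 under the same 3 settings and spanned -0.44 to 0.37 without 1 cow. PDK4 on day 28 minus 1 turned to -0.23 with Cy3 alone and -0.0252 with weights, and spanned -0.0219 to 0.37 without 1 cow; on day 49 minus 28 it turned to 0.11 with Cy3 alone. The PC minus PDK4 change across calving turned to -0.336 with Cy3 alone and -0.472 without cow 7186 on day -30, and spanned -0.472 to 0.295 without 1 cow. The level of PC was 0.277 with Cy5 alone and -0.241 with Cy3 alone.

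Of the counts over all clones, the cow effect went from 800 to 0 without centring, 515 with scaling, 4 with Cy5 alone, 2213 with weights, 9 with both tables joined, 0 without the cow-days whose arrays did not oppose, 1286 on single arrays and 252 without cow 7186 on day -30, and spanned 0 to 788 without 1 cow. The day effect was 0 without centring, with scaling, with Cy5 alone and without the non-opposing cow-days, 60 with weights, and 0 to 0 without 1 cow. Array weights also called 37 clones for day -30 minus -65, 2 for day 1 minus -30 and 15 for any pair. Day 1 minus -30 was 0 with scaling or Cy5 alone, 5 on single arrays and 0 to 1 without 1 cow. Day 28 minus 1 was 6 with Cy3 alone, 1 on single arrays and 0 to 1 without 1 cow. Day 49 minus 28 was 2 with Cy3 alone and 0 to 1 without 1 cow. Any pair was 1 with centring on all rows, 2 with Cy3 alone, 1 with joined tables, 1 with complete clones and 2 on single arrays. The cow-by-day count went from 441 to 228 with scaling and 91 to 518 without 1 cow, and the PDK4 adjusted p to 0.101 without cow 7186 on day -30 and 0.00678 to 0.0911 without 1 cow (0.0911 without cow 7186, 0.0627 without cow 7188).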
